A study of Mus musculus with 16 samples.

Results

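The neurexins Nrxn2 and Nrxn3, the neuroligins Nlgn1, Nlgn2 and Nlgn3, and 4 further adhesion genes, Cntnap2, Lrrtm1, Lrrtm2 and Kirrel3, were read in RNA from mouse prefrontal cortex. These 9 genes were taken by their symbols from the 23284 genes of the expression table, and all 9 were present. They were followed across 4 genotypes of 4 libraries each, 16 in all. None of the 9 passed the test, an adjusted p under 0.05, in any of 7 comparisons of genotypes, in which 0.0143% to 0.229% of all tested genes did. Kirrel3 lay 1.23-fold and 1.24-fold above control in the lines with raised β-catenin and 1.10-fold above it in the line with reduced β-catenin. Its libraries lay wholly above the controls in all 3 lines, as did those of 0.0858% of tested genes (1.46% to 2.98% by line). The adjusted p-values missed the threshold. All lines were set against the same control libraries, and the study picked Kirrel3 from these data. The differences of Nrxn2 and Nlgn2 had the narrowest bounds around 0.

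The control group held Cre-negative littermates pooled from the mutant lines. APC cKO mice were APC fl/fl, β-cat cOE mice carried the ctnnb1 fl(ex3)/+ allele, which gives a stable β-catenin without its degradation domain, and APC/β-cat cKO mice were APC fl/fl/ctnnb1 fl/fl, so that β-catenin is reduced where APC is lost. The 3 mutant lines share the CamKIIα-Cre-93 driver, which acts mainly in excitatory neurons of the forebrain, while the tissue measured also holds interneurons and glia. The mice were young adults of both sexes, aged 2 to 3 months. The comparisons ask whether a rise or a fall of β-catenin, a protein of the Wnt pathway that also sits at cell junctions with cadherins, goes with a change in the RNA of these adhesion genes. Each comparison with control also sets mice with Cre against mice without it.

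Neurexins are presynaptic receptors, made in long and short forms and in many splice variants, that reach across the synaptic cleft to partners on the receiving neuron. Neuroligins and the leucine-rich repeat proteins Lrrtm1 and Lrrtm2 are such partners. Nlgn1 and the Lrrtm proteins are known mainly from excitatory synapses, Nlgn2 from inhibitory synapses and Nlgn3 from both. Cntnap2, also called Caspr2, is a neurexin-related protein of the axon that clusters potassium channels, and Kirrel3 is an immunoglobulin protein that binds to its own kind on another cell. Variants in several of these genes are known in autism.

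The upstream sequences are shown first, for Nlgn1 and Nlgn2, a matched pair of excitatory and inhibitory partners, and for Cntnap2, a presynaptic gene. Whether these sequences bear on the levels of the genes or on their spread between libraries was not tested. RefSeq start sites of the GRCm38.p6 assembly matched 5 of the 9 members by symbol, with 9 windows in all. The 250 bases before the RefSeq start are given 5′ to 3′ on the gene's strand. In the GENCODE annotation, the Nlgn1 and Cntnap2 windows shown lie inside the gene, downstream of its outermost start. Only the Nlgn2 window lies before that start, so the windows compared below differ in position. Capitals mark GGGCGG, the core of the GC box that Sp1-family factors bind.
Nlgn1, chr3:26331910-26332159, minus strand: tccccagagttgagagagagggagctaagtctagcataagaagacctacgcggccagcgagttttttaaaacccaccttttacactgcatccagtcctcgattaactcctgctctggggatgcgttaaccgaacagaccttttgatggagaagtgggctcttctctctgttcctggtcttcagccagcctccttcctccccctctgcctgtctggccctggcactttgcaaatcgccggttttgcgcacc
Nlgn2, chr11:69837785-69838034, minus strand: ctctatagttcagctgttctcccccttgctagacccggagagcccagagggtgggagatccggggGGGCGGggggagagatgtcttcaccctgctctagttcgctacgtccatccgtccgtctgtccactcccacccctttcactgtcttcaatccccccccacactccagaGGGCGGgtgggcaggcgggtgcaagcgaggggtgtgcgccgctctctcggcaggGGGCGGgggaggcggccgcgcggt
Cntnap2, chr6:45059811-45060060, plus strand: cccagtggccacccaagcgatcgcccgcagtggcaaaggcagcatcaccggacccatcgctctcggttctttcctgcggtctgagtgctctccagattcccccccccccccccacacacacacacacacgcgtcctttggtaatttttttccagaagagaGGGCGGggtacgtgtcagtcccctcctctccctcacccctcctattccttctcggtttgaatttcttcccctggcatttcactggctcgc
The Nlgn2 window held 3 matches to GGGCGG and was 67.6% G and C. The Cntnap2 window shown held 1 match at 59.6%, and the Nlgn1 window shown held none at 53.6%. A further window of Cntnap2 and one of Nlgn1, not shown, held 0 matches at 45.2% and 43.6%. The median over all windows was 52.4%. On either strand, GGGCGG was found in 2 of the 9 windows of members and in 32.7% of all 32851 windows of this length. CTTTGA, the core of the site that TCF/LEF factors, the DNA-binding partners of β-catenin, are known to recognise, was in 0 of the 9 windows and in 13.8% of all windows. These are matches of letters in a short window and say nothing of binding.

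In the GENCODE annotation of mm10, most members span long stretches of genome. Cntnap2 runs over 2244.9 kb of chromosome 6 (45059357-47304213, plus strand), Nrxn3 over 1612.1 kb of chromosome 12 (88722876-90334935, plus), Nlgn1 over 906.2 kb of chromosome 3 (25426215-26332460, minus) and Kirrel3 over 550.8 kb of chromosome 9 (34485894-35036716, plus). Nrxn2 covers 125.4 kb of chromosome 19 (6418731-6544169, plus), Nlgn3 covers 26.8 kb of chromosome X (101299168-101325963, plus) and Nlgn2 covers 14.7 kb of chromosome 11 (69823122-69837784, minus). Lrrtm1 (chromosome 6, 77242689-77257791, plus) lies within intron 8 of Ctnna2, the gene of αN-catenin, on the opposite strand. Lrrtm2 (chromosome 18, 35209003-35215024, minus) lies within intron 7 of Ctnna1, the gene of αE-catenin, also on the opposite strand, and overlaps an exon of another Ctnna1 transcript. The table gives both Lrrtm genes the locus of their host, and whether strand was used in the quantification is not given in the sources used here, so the Lrrtm2 level may include reads of Ctnna1. Kirrel3 overlaps an annotated antisense gene, Kirrel3os, to which the same limit applies. Lrrtm2 is also 0.886 Mb from Apc, the gene deleted in both APC fl/fl lines, whereas Kirrel3 is 85.9 Mb from Ctnnb1 on the same chromosome.

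Apc and Ctnnb1 were read first as a check of the genotypes. Apc was at 43.9 ± 4.21 FPKM (fragments scaled by transcript length and by the mapped total, mean ± SD, n = 4) in controls, 44.5 ± 5.11 in β-cat cOE mice and 11.7 ± 3.88 in APC cKO mice, and at 6.80 to 12.2 in the APC/β-cat cKO libraries. The largest value of an APC-deleted library, 17.1, lay below the smallest of the others, 38.8. Ctnnb1 ran from 151 to 182 FPKM over all libraries, each mutant line overlapped the controls, and the APC/β-cat cKO line differed from control by -0.049 (limma adjusted p = 0.643). The value covers the whole gene and does not show its deleted exons, so it does not check the Ctnnb1 alleles. The depth of the libraries is unknown, since the table holds no fragment counts, and 5726 to 6649 genes were listed at 0 per library. Libraries differed in markers of other cell types. The summed level of 12 markers of immature neurons and olfactory bulb neuroblasts, none at 0 in any library, was 42.8 to 164 FPKM in controls, 68.4 to 327 in APC cKO mice, 63.1 to 264 in β-cat cOE mice and 52.1 to 227 in APC/β-cat cKO mice. In 3 libraries, APC cKO replicate 1, β-cat cOE replicate 1 and APC/β-cat cKO replicate 2, all 12 markers were above their highest control value, so differences that change with these 3 are also given without them. The sum of 10 markers of striatal projection neurons ranged from 141 to 758 FPKM, and 12 markers of cortical excitatory neurons summed to 1133 to 1442. The summed level of 6 astrocyte markers was 422 to 465 FPKM in controls, 447 to 599.6 in APC cKO mice, 437 to 513 in β-cat cOE mice and 413 to 533 in APC/β-cat cKO mice, and 2 of the 6 were higher and 1 lower in APC cKO mice at an unadjusted limma p under 0.05. In the same line 3 of 8 interneuron markers and 4 of 6 oligodendrocyte markers were lower at that threshold. Of the 12 excitatory markers, 1 was lower at it in APC cKO mice, 3 in β-cat cOE mice and 0 in APC/β-cat cKO mice. In each line 0 of them were higher. RNA of whole tissue was measured, so fewer cells of a type and less RNA per cell cannot be told apart.

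All 9 members were well above the filter of 0.5 FPKM on the mean, and all 9 were tested. FPKM is per length, so levels can be ordered between genes. In controls the order was Nrxn2 at 56.6 ± 3.12 FPKM, Nlgn2 at 49.3 ± 2.17, Nrxn3 at 33.9 ± 3.501, Cntnap2 at 24.4 ± 2.19, Lrrtm2 at 22.9 ± 2.53, Nlgn1 at 20.7 ± 1.47, Nlgn3 at 19.2 ± 1.18, Lrrtm1 at 17.7 ± 2.29 and Kirrel3 at 12.9 ± 0.294 (mean ± SD, n = 4). Nrxn2, Nlgn2 and Nrxn3 stood apart from the next gene in the order, with no overlap of the control libraries, as did Lrrtm1 from Kirrel3. Between Cntnap2 and Lrrtm1, each gene overlapped the next. The levels of Nrxn2 and Kirrel3 in controls ranked at percentiles 88.2 and 56.7 of the tested genes.

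**Figure D1:**
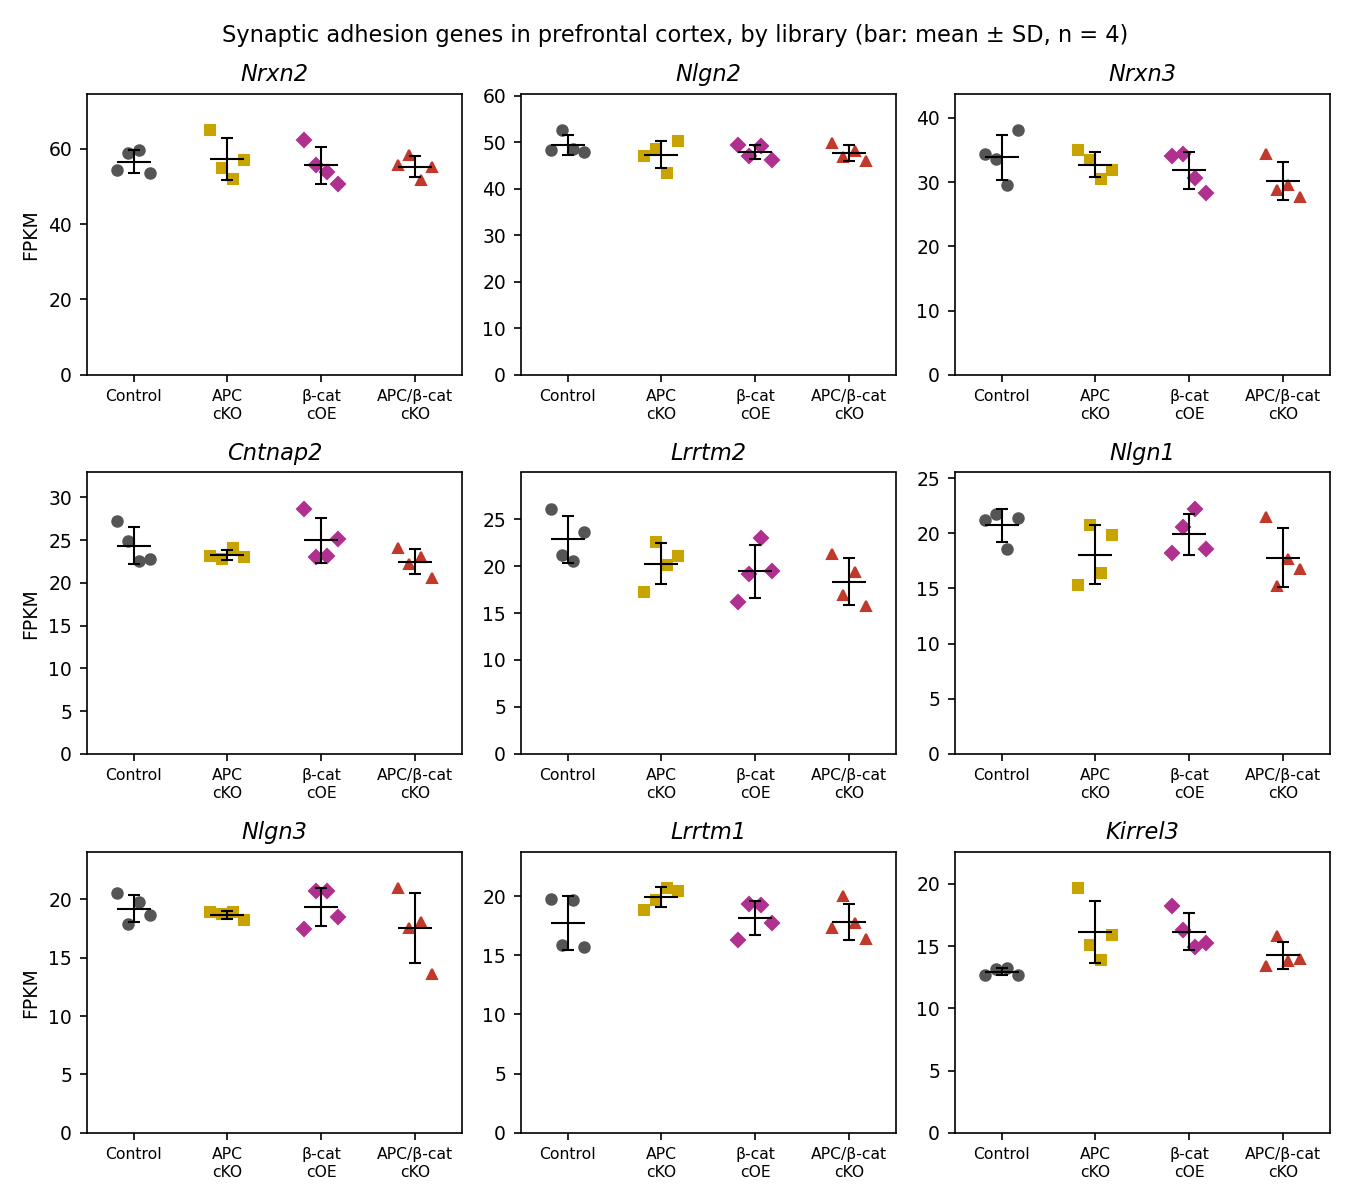
Level of each of the 9 genes in FPKM (vertical axes, from 0) in the 4 libraries of each genotype, one symbol per library, with the bar at the mean and the whiskers at ± SD (n = 4). Nrxn2 and Nlgn2 stay level across the 4 genotypes, while the Kirrel3 libraries of the 3 mutant lines all lie above the control libraries, which span 12.7 to 13.2.

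Nrxn2, the most abundant member, did not differ detectably between genotypes. Its controls were at 54.3, 58.9, 59.6 and 53.6 FPKM in replicates 1 to 4, and its APC cKO libraries at 65.0, 55.0, 52.0 and 56.9. The β-cat cOE libraries were at 62.4, 55.7, 53.8 and 50.7 and the APC/β-cat cKO libraries at 55.7, 58.4, 51.8 and 55.3. Every mutant group overlapped the controls, and the highest library in the APC cKO mice and in the β-cat cOE mice was replicate 1, one of those high in immature neuron markers. The differences from control, on the log2(FPKM + 0.1) scale used for all tests, were 0.012, -0.027 and -0.033 in APC cKO mice, β-cat cOE mice and APC/β-cat cKO mice (SE 0.073), and no bound of their 95% intervals was farther from 0 than 0.19. Nrxn3, which shares the neurexin design, was at 34.4, 33.5, 29.6 and 38.1 FPKM in controls, 30.5 to 35.0 in APC cKO mice, 28.3 to 34.3 in β-cat cOE mice and 27.7 to 34.4 in APC/β-cat cKO mice. Its 4 groups overlapped, with differences of -0.047, -0.088 and -0.17 (SE 0.086) and a limma p of 0.0696 for the last (adjusted p = 0.388).

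Cntnap2 showed the same overlap. Its control libraries were at 27.2, 24.9, 22.5 and 22.8 FPKM and its APC cKO libraries within a narrow 22.8 to 24.1. The β-cat cOE libraries ran from 23.001 to 28.6, with replicate 1 at the top, and the APC/β-cat cKO libraries from 20.6 to 24.05. Its differences from control were -0.063, 0.035 and -0.11 (SE 0.076), with limma adjusted p-values of 0.805, 0.974 and 0.499.

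Among the neuroligins, Nlgn2 was the steadiest. It was at 48.3, 52.6, 48.6 and 47.9 FPKM in controls, 43.3 to 50.2 in APC cKO mice, 46.2 to 49.3 in β-cat cOE mice and 45.9 to 49.9 in APC/β-cat cKO mice. The spread of its libraries around their genotype mean, an SD of 0.065 on the log2 scale, was at percentile 4.75 of all tested genes, and its differences from control of -0.062, -0.041 and -0.049 (SE 0.051) had intervals that reached no farther than 0.17. Nlgn1, the partner at excitatory synapses, was at 21.2, 21.8, 18.5 and 21.4 FPKM in controls. It was at 15.3, 20.8, 16.4 and 19.8 in APC cKO mice, at 18.2, 20.6, 22.2 and 18.6 in β-cat cOE mice, and at 21.5, 15.2, 17.7 and 16.8 in APC/β-cat cKO mice. In the APC cKO group 2 of 4 libraries and in the APC/β-cat cKO group 3 of 4 lay under all controls, with the rest inside the control range. The differences of -0.20 and -0.23 (SE 0.11) of these lines did not pass the test (limma adjusted p = 0.559 and 0.369). Without the 3 libraries high in immature neuron markers, these came to -0.13 and -0.16. The difference in β-cat cOE mice was -0.060, and -0.019 without the same libraries. Nlgn3, on the X chromosome, was at 17.9 to 20.6 FPKM in controls, 18.2 to 18.9 in APC cKO mice, 17.5 to 20.7 in β-cat cOE mice and 13.6 to 20.95 in APC/β-cat cKO mice, with differences of -0.037, 0.0094 and -0.15 (SE 0.10). Its lowest value, 13.6, came from APC/β-cat cKO replicate 4, which also held the lowest value of Nrxn3, Cntnap2 and Lrrtm2, and which had a summed striatal marker level of 541 FPKM and the most genes at 0, 6649. The part of these in the 4 low values was not tested. Without this library the Nlgn3 difference of the line came to -0.029.

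The balance of the excitatory and inhibitory neuroligin was read as Nlgn1 over Nlgn2 in each library, a ratio chosen after the data were seen. It was 0.438, 0.414, 0.382 and 0.446 in controls and 0.325, 0.428, 0.378 and 0.396 in APC cKO mice. It was 0.369, 0.437, 0.452 and 0.403 in β-cat cOE mice and 0.430, 0.324, 0.367 and 0.366 in APC/β-cat cKO mice. The mutant groups overlapped the controls, and exact two-sided permutation tests gave p-values, adjusted over the 3 comparisons, of 0.300, 0.800 and 0.257. The log2 differences from control were -0.14, -0.019 and -0.18, and without the 3 libraries high in immature neuron markers they were -0.068, 0.036 and -0.12.

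Lrrtm1 and Lrrtm2, related leucine-rich repeat partners of neurexins, did not pass the test in any line. Lrrtm1 was at 19.7, 15.8, 19.7 and 15.7 FPKM in controls, where the 4 libraries fell into a high and a low pair, and at 18.8 to 20.7 in APC cKO mice, 16.3 to 19.3 in β-cat cOE mice and 16.4 to 19.98 in APC/β-cat cKO mice. Its differences were 0.17, 0.037 and 0.013 (SE 0.088), with a limma adjusted p of 0.531 for the first. Lrrtm2 was at 26.1, 21.2, 20.5 and 23.6 FPKM in controls and 17.3, 22.6, 20.1 and 21.1 in APC cKO mice. It was at 16.2, 19.1, 22.97 and 19.5 in β-cat cOE mice and 21.3, 17.0, 19.4 and 15.8 in APC/β-cat cKO mice. In the β-cat cOE and the APC/β-cat cKO groups 3 of 4 libraries lay under every control, and in the APC cKO group 2 of 4, with the rest inside the control range. Its differences were -0.17, -0.24 and -0.32 (SE 0.12), and the last had an unadjusted limma p of 0.0157 and an adjusted p of 0.281, with an exact permutation p of 0.0857. Without the 3 libraries high in immature neuron markers the differences were -0.099, -0.15 and -0.28. The host gene of Lrrtm2, Ctnna1, was at 15.1 to 17.7 FPKM in controls and 15.4 to 19.0 in the mutant lines, with no difference that passed the test. The host of Lrrtm1, Ctnna2, was at 55.5 to 57.8 FPKM in controls, 49.5 to 52.6 in APC cKO mice and 46.8 to 53.9 in APC/β-cat cKO mice. Both lines lay below all controls, with differences of -0.14 and -0.19 (SE 0.056, limma adjusted p = 0.424 and 0.214). The share of all genes lying wholly below control, in these or any line, is not given here. In β-cat cOE mice Ctnna2 overlapped the controls, at 48.7 to 57.4.

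Kirrel3 was the member with the clearest separation. Its controls were tightly grouped at 12.7, 13.2, 13.2 and 12.7 FPKM. The APC cKO libraries were at 19.6, 15.1, 13.9 and 15.9 and the β-cat cOE libraries at 18.2, 16.3, 14.9 and 15.2. The APC/β-cat cKO libraries, with reduced β-catenin, were at 13.4, 15.8, 13.8 and 14.0. All 12 mutant libraries thus lay above all 4 controls, which was so for 12 of the 13978 tested genes, or 0.0858%. By line, groups lay wholly above control for 2.49% of genes in APC cKO mice, 1.46% in β-cat cOE mice and 2.98% in APC/β-cat cKO mice. The 3 comparisons share the same 4 controls. All mutant libraries came from lines with Cre and all controls were Cre-negative, so the part of Cre itself cannot be told apart. The study picked Kirrel3 from these same libraries, so its separation is not independent evidence of a direction.

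The differences of Kirrel3 from control were 0.30 in APC cKO mice (95% interval 0.11 to 0.50), 0.31 in β-cat cOE mice (0.12 to 0.51) and 0.14 in APC/β-cat cKO mice (-0.060 to 0.33), each with an SE of 0.092. The unadjusted limma p-values were 0.00491, 0.00376 and 0.160, and the adjusted ones 0.312, 0.946 and 0.507. Exact permutation tests, run only where the unadjusted limma p was under 0.05, gave 0.0286 in the first pair of lines. This is the smallest p that 4 against 4 libraries allow, and any complete separation gives it. The exact test was not run in APC/β-cat cKO mice, whose libraries also lay wholly above the controls, so it does not set the lines apart. The lines with raised β-catenin together against the other groups differed by 0.24 (SE 0.065, an unadjusted limma p of 0.00212 and an adjusted p of 0.329), with the groups overlapping, while the other 8 members had unadjusted p-values of 0.133 to 0.858 there. Against APC/β-cat cKO mice directly, Kirrel3 was higher by 0.17 in APC cKO mice and by 0.18 in β-cat cOE mice, with intervals that included 0 (-0.030 to 0.36 and -0.018 to 0.37), so a difference between the raised and the reduced line was not shown.

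The highest Kirrel3 library of each mutant line was the one highest in immature neuron markers. Of the 8 libraries with raised β-catenin, the other 6 had marker sums of 63.1 to 122 FPKM, inside the control range of 42.8 to 164, and Kirrel3 levels of 13.9 to 16.3, above the 12.7 to 13.2 of the controls. Their astrocyte marker sums were 437 to 479 FPKM, and 3 of these 6 exceeded the highest control, 465, as did all 3 libraries high in immature neuron markers, at 513 to 599.6. The part of these cells in the Kirrel3 level was not tested. Without the 3 libraries the Kirrel3 differences were 0.20, 0.26 and 0.086 with unadjusted limma p-values of 0.00524, 0.00102 and 0.182 and adjusted ones of 0.595, 1 and 0.655. APC cKO replicate 1 was also 1 of the 2 libraries read as female from sex-linked genes, and with sex as a covariate the Kirrel3 difference of that line was 0.30. Kirrel2, a relative of Kirrel3, was at 2.78 ± 0.534 FPKM in controls and 2.08 ± 0.385 in APC cKO mice (n = 4), a difference of -0.40 with a limma adjusted p of 0.383. In β-cat cOE mice its libraries, at 1.85 to 2.38, lay below all controls, at 2.40 to 3.54, with a difference of -0.30 (limma adjusted p = 0.946). How many of all genes lay wholly below control in that line is not given here. The APC/β-cat cKO libraries overlapped the controls, with a difference of -0.24.

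**Figure D2:**
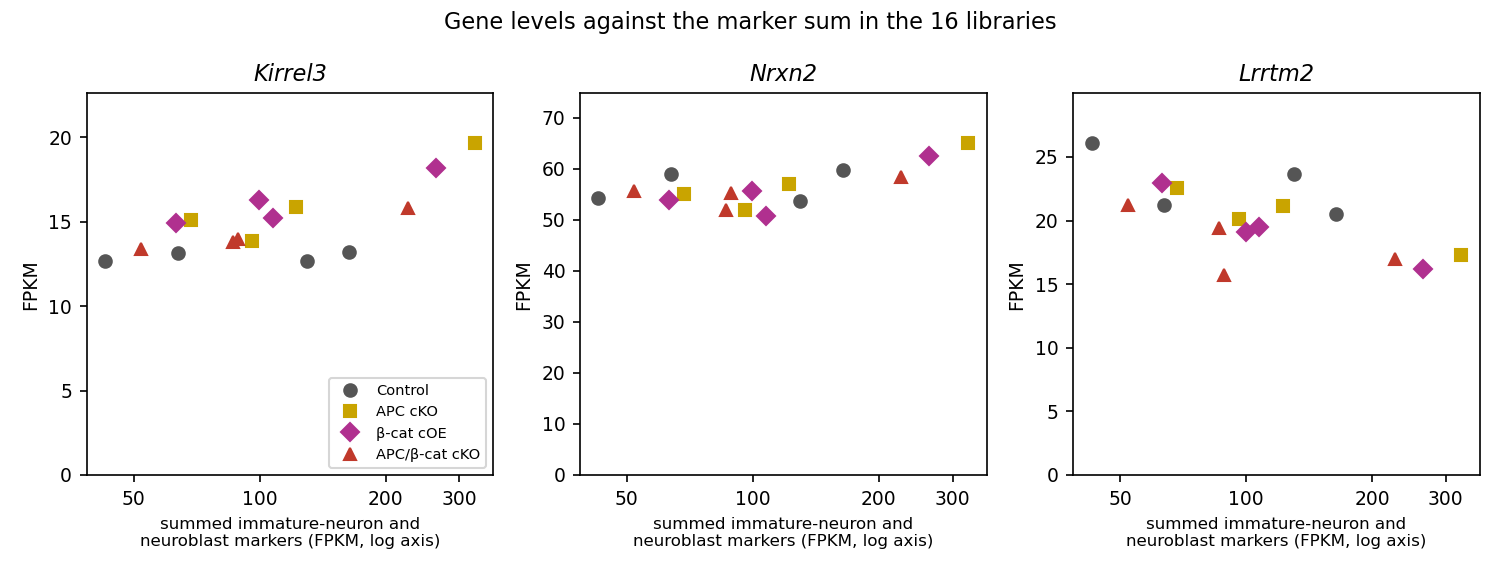
Levels of Kirrel3, Nrxn2 and Lrrtm2 in FPKM (vertical axes, from 0) against the summed level of 12 markers of immature neurons and olfactory bulb neuroblasts (horizontal log axes, FPKM), one symbol per library and one shape per genotype. The 3 libraries at the right, with sums of 227 to 327, have the highest Kirrel3 of their own lines, and the control libraries stay at 12.7 to 13.2 over their whole range of sums.

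At an adjusted p under 0.05, 0 of 9 members were called in APC cKO mice against 0.0429% of all tested genes, 0 of 9 in β-cat cOE mice against 0.0143%, and 0 of 9 in APC/β-cat cKO mice against 0.207%. At an unadjusted limma p under 0.05 it was 1 of 9 in each line, Kirrel3, Kirrel3 and Lrrtm2 in turn, where 10%, 5.07% and 14.2% of all genes passed, so the members' share was near the background. Between mutant lines 0 of 9 were called in each of the 3 comparisons, where 0.215% (APC cKO against APC/β-cat cKO), 0.229% (β-cat cOE against APC/β-cat cKO) and 0.0429% (APC cKO against β-cat cOE) of genes were, and the smallest unadjusted limma p of a member was 0.0679. Both raised lines against the other groups also called 0 of 9 members, with 0.0572% of all genes. At an unadjusted limma p under 0.05, 0 of 9 members passed between mutant lines, where 10.3%, 11.9% and 7.57% of genes did, and 1 of 9, Kirrel3, passed for the raised lines, with 8.84%. The median difference of the 9 members from control was -0.047, -0.027 and -0.11 in APC cKO mice, β-cat cOE mice and APC/β-cat cKO mice, beside -0.00421, -0.00358 and 0.00305 for all tested genes, and 7 of the 9 were below 0 in APC/β-cat cKO mice.

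The intervals bound what these libraries could have missed. For all 9 members the 95% intervals against control stayed within 1.5-fold either way in all 3 lines, as they did for 73.8% of tested genes. The farthest bound, 0.57 on the log2 scale, was that of Lrrtm2 in APC/β-cat cKO mice, followed by 0.51 for Kirrel3, 0.47 for Nlgn1, 0.36 for Lrrtm1 and for Nlgn3, 0.35 for Nrxn3 and 0.28 for Cntnap2. These are intervals for single genes that do not allow for the number of genes compared.

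**Figure D3:**
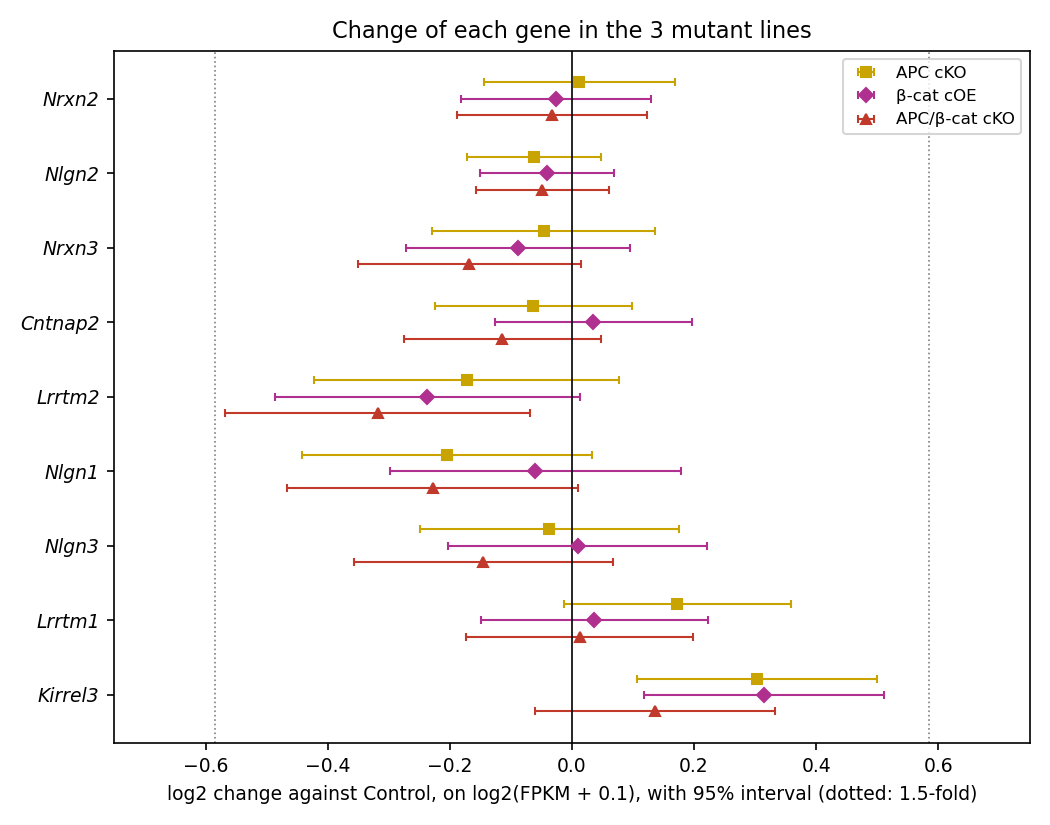
Difference from control of each of the 9 genes on the log2(FPKM + 0.1) scale (horizontal axis) in the 3 mutant lines, with 95% intervals from the limma fit and dotted lines at 1.5-fold. All intervals lie inside the dotted lines, and those of Kirrel3 in APC cKO mice and β-cat cOE mice and of Lrrtm2 in APC/β-cat cKO mice do not cross 0.

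Within genotypes the members did not move as one block. Deviations of the 16 libraries from their genotype means, which share a library's tissue and depth, gave Pearson r over 0.5 in 5 of the 36 pairs of members and under -0.5 in 3. Kirrel3 and Nrxn2 went together (r = 0.89), as did Nlgn1 and Lrrtm2 (0.78), Nlgn3 and Lrrtm2 (0.65), Nlgn1 and Nlgn2 (0.58) and Nlgn3 and Lrrtm1 (0.51). Lrrtm2 went against Kirrel3 (-0.68) and Nrxn2 (-0.66), and Nlgn1 against Kirrel3 (-0.54). The library with the highest Kirrel3 and Nrxn2 of all, APC cKO replicate 1, was low in Nlgn1 and Lrrtm2 and highest in immature neuron markers, and Control replicate 1, lowest in those markers, had the highest Lrrtm2. The part of tissue composition in these relations was not tested.

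**Figure D4:**
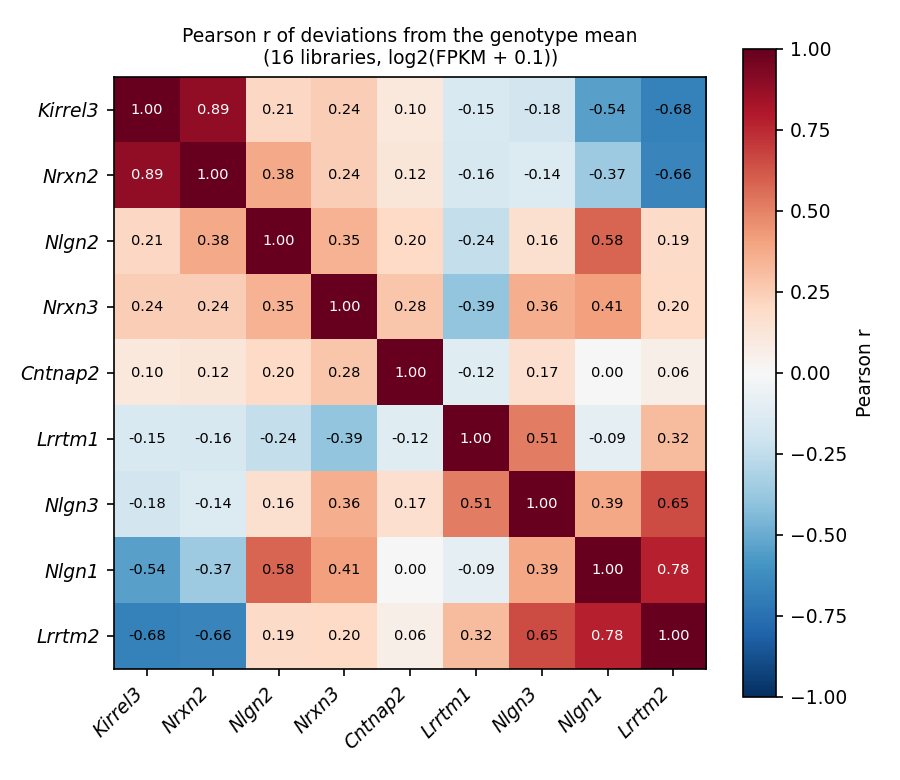
Pearson r between each pair of the 9 genes (both axes) over the deviations of the 16 libraries from their genotype means on the log2(FPKM + 0.1) scale, coloured from -1 to 1 and printed in each square. Kirrel3 and Nrxn2 form a pair at 0.89, and both are negative against Nlgn1 and Lrrtm2, which are at 0.78 with each other.

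Over all 16 libraries, the gene most like Nlgn1 by Pearson r on the same scale was Map2k4, a stress kinase (r = 0.97), and the gene most like Lrrtm2 was Gng12, a G protein subunit (0.93). Cltc, the clathrin heavy chain, was most like Nrxn3 (0.91), and Crmp1, a protein of growth cones, most like Nrxn2 (0.87). Kirrel3 was most like Dennd2a (0.91), Pcdhgc3, a clustered protocadherin (0.90), and Zc4h2 (0.89). On deviations from the genotype means these came to 0.90, 0.80 and 0.90. Lrrtm1 and Cntnap2 had no gene closer than Dapp1 (0.83) and Nfrkb (0.79). Each is the highest of many correlations over 16 libraries, so high values arise by selection. The part of tissue composition in them was not tested.

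The wider adhesion machinery was read through 119 listed genes in 6 lists, of which 115 were tested and 0 were called at an adjusted p under 0.05 in any of the 3 comparisons with control. At an unadjusted limma p under 0.05, 2 were higher and 7 lower in APC cKO mice (7.83% of 115, all genes 10%), 2 higher and 1 lower in β-cat cOE mice (2.61%, all genes 5.07%), and 2 higher and 13 lower in APC/β-cat cKO mice (13.04%, all genes 14.2%). In the last line 89 of the 115 lay below control, with a median difference of -0.094 beside 0.00305 over all genes. Over all tested genes, 1984 had an unadjusted limma p under 0.05 in this line. Without replicates 1 to 4 in turn, the number was 2903, 1266, 2312 and 1062. Replicate 2 was high in immature neuron markers, and replicate 4 had the most genes at 0. How far the lower adhesion genes rest on these libraries was not tested. In that line the sum of 5 microglia markers was 86.5 to 91.6 FPKM against 78.6 to 83.9 in controls, with 2 of the 5 higher at an unadjusted limma p under 0.05. The sum of 6 oligodendrocyte markers was 914 to 1032 FPKM against 712 to 1089 in controls, with 3 of the 6 higher. Their part in the lower values of the adhesion genes was not tested.

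Among the listed adhesion proteins, Clstn1, a calsyntenin, was at 432 ± 17.5 FPKM in controls and 387 ± 33.3 in APC cKO mice (n = 4 each, difference -0.16). Ntng2, netrin-G2, was at 12.9, 12.97, 9.52 and 11.2 FPKM in controls. It was at 15.4, 13.4, 14.3 and 16.2 in APC cKO mice and 14.3, 13.1, 15.9 and 14.3 in APC/β-cat cKO mice. Both APC-deleted lines lay above all controls, by 0.35 and 0.31 (SE 0.11, limma adjusted p = 0.310 and 0.278). Of all tested genes, 2.49% lay wholly above control in APC cKO mice and 2.98% in APC/β-cat cKO mice. The β-cat cOE mice, at 10.8 to 14.5, overlapped the Ntng2 controls. Lrrc4, a netrin-G ligand, was at 38.9 to 41.3 FPKM in controls and 32.7 to 37.8 in APC cKO mice, without overlap (difference -0.18, limma adjusted p = 0.316). The share of all genes lying wholly below control is not given here, so this separation has no background to be read against.

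Among the secreted linkers, Cbln2, which bridges neurexins to postsynaptic receptors, was at 37.6, 28.7, 32.6 and 37.5 FPKM in controls and 30.0, 26.6, 31.5 and 26.5 in APC/β-cat cKO mice (difference -0.24, limma adjusted p = 0.281). The β-cat cOE libraries were between 26.6 and 32.4 (difference -0.19, limma adjusted p = 0.946). Nxph4, a neurexophilin, was at 1.87 to 3.12 FPKM in controls and 8.42, 3.51, 3.19 and 4.40 in APC cKO mice (difference 0.90, limma adjusted p = 0.421). Its highest values, 8.42 in APC cKO replicate 1, 6.43 in APC/β-cat cKO replicate 2 and 5.04 in β-cat cOE replicate 1, came from the 3 libraries high in immature neuron markers, and without APC cKO replicate 1 the difference was 0.61. Magi2, an intracellular scaffold that binds neuroligins, was at 25.7, 23.9, 23.2 and 23.6 FPKM in controls and 24.5, 17.7, 20.1 and 15.7 in APC/β-cat cKO mice (difference -0.32, limma adjusted p = 0.278).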

How the data were processed

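RNA from prefrontal cortex was prepared with the TruSeq stranded mRNA kit and sequenced in paired ends. Per the labels and the study's methods, the authors used bcl2fastq, mapped the reads to mm10 with TopHat2 2.0.10 and made FPKM values with Cufflinks and Cuffdiff 2.1.1. The table as deposited holds log2 values taken to be log2(FPKM + 1), with base and offset inferred from the values, and these were turned back into FPKM. Samples were grouped by their labels, 4 of each genotype. The labels do not say that each came from its own mouse, so p-values measure the spread between these samples, which may be technical.

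limma 3.58.1 in R 4.3.3, with a trend, was run on log2(FPKM + 0.1) for 13978 genes averaging 0.5 FPKM or more. One spread was estimated for the 4 genotypes (12 residual degrees of freedom), and p-values were Benjamini-Hochberg adjusted over all genes tested. Differences on this scale understate the change of low genes. Two-sided exact permutation tests were used for members with an unadjusted limma p under 0.05 against control, and for the ratio of Nlgn1 over Nlgn2. The depth is unknown, so no counting error is given. Named beyond the 9 members were partner genes with the smallest p-values in each list, the genes most like a member, and host genes. The values of some genes that this rule names are not reported here. The members and lists were chosen with earlier results of these data known. By sex-linked genes, 2 libraries were female and 14 male, and sex was tried as a covariate, beside other pseudocounts, filters, scalings and left-out libraries. Figures were drawn with matplotlib 3.10.9.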

Additional observations from a re-analysis of the deposited data

Results flagged for a closer look

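One value stood apart within its group. In controls, Nlgn2 was at 52.6 FPKM in replicate 2 and at 47.9 to 48.6 in the other 3, and the gap made up 0.869 of the range, above the Dixon limit for 4 samples. All 9 members were read in 4 genotypes, 36 groups in all, and chance flags about 1 in 20 groups.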

How the results depend on the processing

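The number of members called at an adjusted p under 0.05 was 0 in all 7 comparisons and stayed 0 under all 196 combinations of comparison and alternative, where the smallest adjusted limma p of a member was 0.105. The 28 single differences were each recomputed under 28 alternatives, and 765 of 784 kept their direction. The 19 others belong to 7 differences of at most 0.047 in size, whose sign is therefore not settled. Another filter, a fit without a trend, or leaving out a library of a group not compared leaves a difference as it was. Directions under such alternatives could not change, so the count of 765 overstates how steady the differences are. Without the 3 libraries highest in immature neuron markers, a choice made after seeing the data, Nrxn2 in APC cKO mice came to -0.050, Cntnap2 in β-cat cOE mice to -0.032 and Lrrtm1 in APC/β-cat cKO mice to -0.043. The log2 ratio of Nlgn1 over Nlgn2 in β-cat cOE mice came to 0.036. With each library left out in turn, Nrxn2 ranged from -0.050 to 0.057 and Nrxn3 from -0.11 to 0.011 in APC cKO mice. In β-cat cOE mice, Nrxn2 ranged from -0.083 to 0.017, Nlgn3 from -0.025 to 0.058, Cntnap2 from -0.032 to 0.090 and Lrrtm1 from -0.019 to 0.091, and Lrrtm1 in APC/β-cat cKO mice ranged from -0.043 to 0.067. Kirrel3 kept an unadjusted p under 0.05 in APC cKO mice and β-cat cOE mice under all 28 alternatives, from 0.20 to 0.37 and from 0.26 to 0.36, and Lrrtm2 in APC/β-cat cKO mice under 26 of 28, from -0.39 to -0.25.

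The numbers in the sample titles did not pair the libraries, with 4 of 21 pairs of same-numbered libraries correlated over 0.1 and 5 of 16 libraries closest to their own number. With the title number as a replicate block, which leaves the APC cKO library with no same-numbered partner without weight, 0 members were called, and Kirrel3 came to 0.29 in APC cKO mice and 0.31 in β-cat cOE mice and Lrrtm2 to -0.32 in APC/β-cat cKO mice. With 4 libraries a group and unknown depth, changes smaller than the intervals given for each gene could not be seen.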
